A study of Homo sapiens with 16 samples.

Results

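YAP and TAZ are coactivators that bind no DNA themselves and act through the TEAD transcription factors, and the kinases of the Hippo pathway hold them in the cytoplasm. In neuroblastoma the pathway is known as part of the mesenchymal cell state. The genes described here are 10 rows of a single-cell count table with 27043 gene rows, chosen by name. The factors are the coactivators YAP1 and WWTR1 (which encodes TAZ) and TEAD1, TEAD2, TEAD3 and TEAD4. The targets are CYR61 and CTGF, secreted matrix proteins of the CCN family, AMOTL2, an angiomotin that binds YAP, and NT5E, the cell surface enzyme CD73 that makes adenosine. Of the 10 rows, 9 held a count, and 2 (TEAD1 and NT5E) held at least 100 counts.

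The cells were SK-N-AS, an established human neuroblastoma line, untreated, grown in serum-containing medium and sorted singly into plate wells for MARS-seq, which counts tags near the 3′ ends of transcripts. The labels list 16 samples of 1 group, but the table's columns are cell barcodes that name no sample, so its 603 cells were taken as 1 pool with no replicates, no test and no p-value. The cells held 1537576 counts, with totals per cell between 1000 and 42404 and a median of 2106. Barcodes repeat in the columns, and 239 of 364 occur both in a first run of 316 cells (barcode set 1) and in a second run of 287 (barcode set 2). The sets are no groups of the study and served as a check. The deepest cell held 2.76% of all counts. Levels are CPM, the summed counts scaled to a fixed library total, with 95% Poisson intervals, which cover counting error only, and they are not divided by transcript length. Comparisons of levels between genes are therefore of tag counts, not of molecules. Fewer cells with a gene and less RNA per cell cannot be told apart in such sums. The labelled cell type was checked on marker genes: HAND2, a sympathetic lineage factor, stood at 273 CPM and VIM, a mesenchymal filament gene, at 5649 CPM. All 7 erythroid genes checked, which lie on 6 rows, were at 0. So were 6 of 8 endothelial, 6 of 8 Schwann precursor and 5 of 8 immune genes. DBH, which makes noradrenaline, was at 0, and TH, the first enzyme of that pathway, had 3 counts. Of 8 epithelial genes 3 (CDH1, KRT5 and KRT14) were at 0, and over all protein-coding rows 34.2% were. KRT18, a keratin, stood at 334 CPM with a count in 44.1% of cells, CLDN4 at 43.6 CPM and KRT8 at 24.1 CPM. Of the immune genes, CD68 had 84 counts and PTPRC 29.

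The coactivators were low. WWTR1 had 87 counts, or 56.6 CPM (45.3 to 69.8), with 66.1 CPM in barcode set 1 and 46.6 CPM in set 2. YAP1 had 28 counts, or 18.2 CPM (12.1 to 26.3), with 16 counts in set 1 and 12 in set 2. WWTR1 therefore held 3.11 times as many tags as YAP1 (log2 ratio 1.64, interval 1.01 to 2.31), and it was the higher one in both sets, at 1.70 in set 1 and 1.54 in set 2.

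Among the TEAD factors, which carry the DNA-binding domain, TEAD1 led. TEAD1 had 299 counts, or 194 CPM (173 to 218), with 203 CPM in set 1 and 185 CPM in set 2, and it ranked 896 among all rows by counts. TEAD2 had 97 counts, or 63.1 CPM (51.2 to 77.0), on a row shared with the transcript AK097351, whose tags cannot be separated from its own. TEAD4 followed at 28.6 CPM (20.8 to 38.4) and TEAD3 at 9.76 CPM (5.46 to 16.1). TEAD1 held 65.7% of the TEAD counts (61.2% to 70.1%), and its share was 67.2% in set 1 and 64.1% in set 2.

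The 4 targets ranged between 0 and 126 CPM. NT5E had 193 counts, or 126 CPM (108 to 145), with 135 CPM in set 1 and 116 CPM in set 2. AMOTL2 had 92 counts, or 59.8 CPM (48.2 to 73.4), and CYR61 had 69 counts, or 44.9 CPM (34.9 to 56.8), on a row shared with the transcript AL832891. CTGF had no count in any of the 603 cells, which allows a level of up to 1.95 CPM and up to 0.498% of cells with a count. A row at 0 was common: 34.2% of the 18663 protein-coding rows had no count. CTGF and CYR61 are often measured together as readouts of YAP and TAZ, and here they stood at 0 and 44.9 CPM. NT5E alone held 54.5% of the target counts (49.2% to 59.8%).

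**Figure D1:**
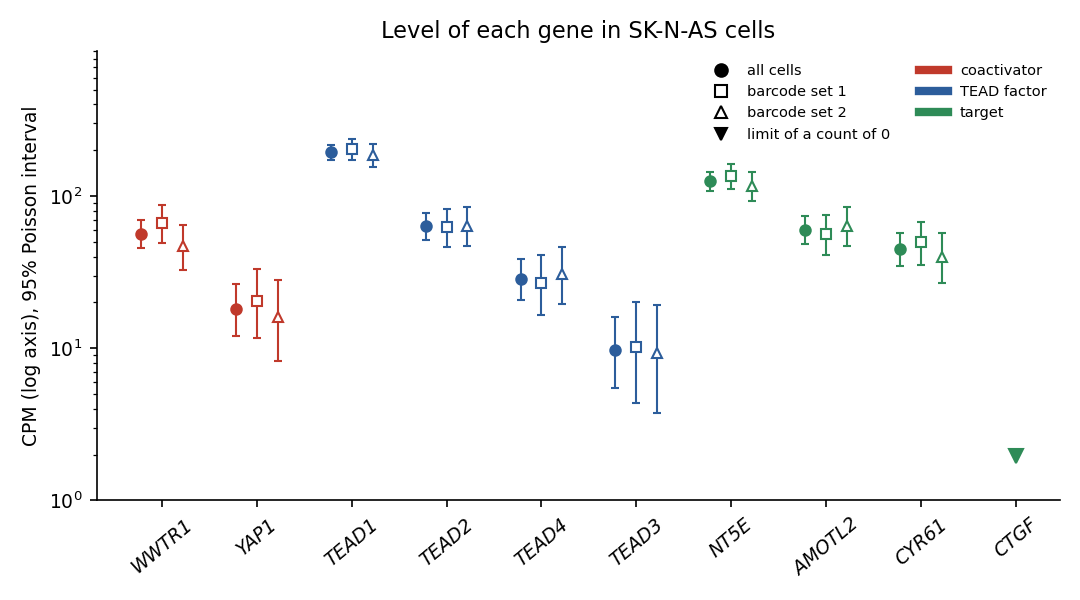
Level of each gene in CPM on a log axis, with 95% Poisson intervals, for all 603 cells (filled circles), barcode set 1 (squares) and barcode set 2 (triangles). TEAD1 and NT5E stand highest at 194 and 126 CPM, the 2 sets lie close together for each gene, and the downward triangle marks the limit of 1.95 CPM that the count of 0 allows for CTGF.

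In the order of levels, TEAD1 was above NT5E (log2 ratio 0.63, interval 0.37 to 0.90) and NT5E above TEAD2 (0.99, 0.63 to 1.36). TEAD2, AMOTL2, WWTR1 and CYR61 followed, and each of these neighbours differed by less than counting error, with log2 ratios of 0.08, 0.08 and 0.33 whose intervals include 0. CYR61 was above TEAD4 (0.65, 0.08 to 1.23). TEAD4 against YAP1 and YAP1 against TEAD3 again differed by less than counting error.

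Summed over each role, the targets were below the factors, but the sums cover 4 targets and 6 factors. TEAD1 alone held 299 of the factor counts. By gene, the median log2(CPM + 1) was 5.72 for the targets, 5.45 for the TEAD factors and 5.06 for the coactivators. The 4 targets held 354 counts, or 230.2 CPM (207 to 256), against 570 counts, or 371 CPM (341 to 402), for the 6 factors. The log2 ratio of targets to factors was -0.69 (-0.88 to -0.49), and it was -0.70 in set 1 and -0.68 in set 2. Against the coactivators alone, the targets were higher by a log2 ratio of 1.62 (1.31 to 1.94). Without NT5E the targets held 161 counts, or 105 CPM.

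The RefSeq promoter table (GRCh38.p14) held 7 of the 10 genes in 10 windows, of which the 250 bases before each annotated start were searched. CYR61, TEAD1 and TEAD4 were not matched. The core letters of the TEAD site, GGAATG read on both strands, occurred in 3 of the 10 windows, those of CTGF, YAP1 and the second of the AMOTL2 starts. Over all 35116 windows of the table, 11.9% held the core, and 29 windows (0.0826%) held it 3 or more times. The AP-1 letters TGANTCA, read on both strands, occurred in 0 of the 10 windows and in 6.57% of all. A match is a string of letters and shows no binding. The windows of the target at 0 and of the 2 targets with the most counts are printed 5′ to 3′ along the gene's strand, with the TEAD core or its reverse complement in capitals. They are CTGF at chr6:131951373-131951622 on the minus strand, AMOTL2 at chr3:134374448-134374697 on the minus strand and NT5E at chr6:85449833-85450082 on the plus strand.
CTGF: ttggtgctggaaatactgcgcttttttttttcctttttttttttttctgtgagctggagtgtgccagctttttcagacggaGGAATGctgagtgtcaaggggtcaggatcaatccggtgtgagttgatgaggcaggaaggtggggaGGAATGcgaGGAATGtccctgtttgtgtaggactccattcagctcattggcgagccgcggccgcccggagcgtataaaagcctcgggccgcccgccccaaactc
AMOTL2: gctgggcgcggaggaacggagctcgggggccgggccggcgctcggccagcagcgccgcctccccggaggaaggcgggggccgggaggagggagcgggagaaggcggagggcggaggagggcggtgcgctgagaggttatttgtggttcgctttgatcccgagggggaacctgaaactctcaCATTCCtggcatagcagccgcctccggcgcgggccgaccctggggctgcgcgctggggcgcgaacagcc
NT5E: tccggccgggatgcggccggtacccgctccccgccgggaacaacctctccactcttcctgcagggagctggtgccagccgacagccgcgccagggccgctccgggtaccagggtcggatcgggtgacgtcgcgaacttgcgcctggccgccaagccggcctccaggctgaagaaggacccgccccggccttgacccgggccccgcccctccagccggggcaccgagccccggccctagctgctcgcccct
CTGF, the target with 0 counts, held the core 3 times, with first bases at -169, -104 and -95 from the start, and 2 of these lie 9 bases apart. AMOTL2 held it once, at -69 on the opposite strand, and NT5E, the target with the most counts, held it 0 times.

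The 10 genes were seen in few cells each. To compare cells of unlike depth, each cell was thinned at random to 1100 counts, which left 560 cells and dropped 43 shallower ones. TEAD1 then had a count in 104 of 560 cells, or 18.6% (15.4% to 22.0%), and NT5E in 58, or 10.4% (7.96% to 13.2%). TEAD2 and WWTR1 each had one in 5.89%, AMOTL2 in 5.18% and CYR61 in 21 cells, or 3.75% (2.34% to 5.68%). TEAD4 was at 2.14% and YAP1 at 1.61%, and TEAD3 lost all its counts in the thinning. Without thinning the shares were higher, at 33.2% for TEAD1, 21.7% for NT5E and 7.46% for CYR61. The share went with depth. With cells in 4 bins by total, TEAD1 had a count in 17.2%, 26.5%, 34.7% and 54.3% of cells from the shallowest to the deepest bin, while its CPM lay between 170.5 and 202. No cell type that should lack these genes was measured, so the share that free RNA would give is unknown.

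**Figure D2:**
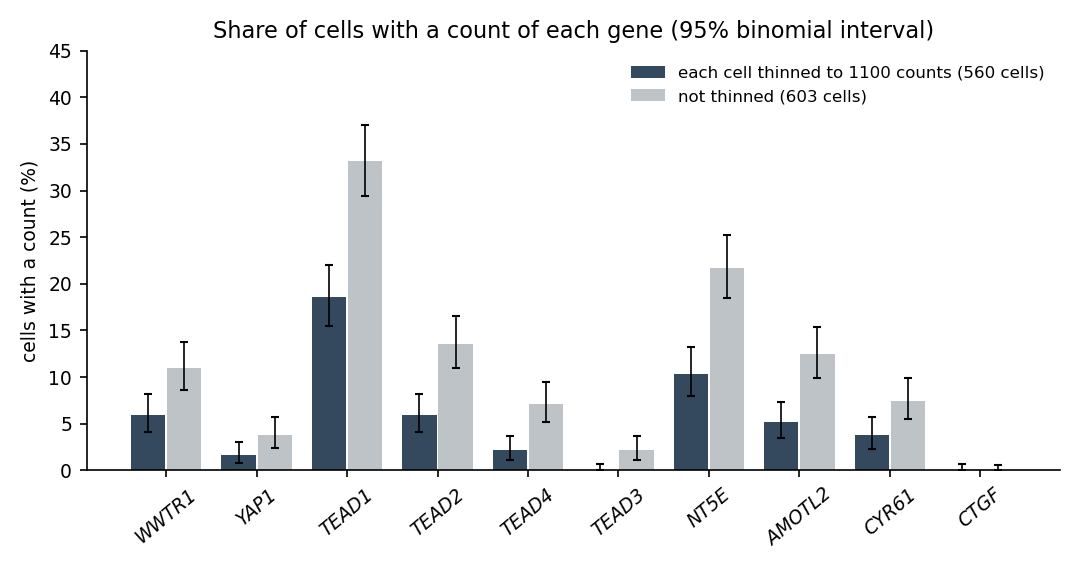
Share of cells with at least 1 count of each gene, after thinning each cell to 1100 counts (dark bars, 560 cells) and without thinning (light bars, 603 cells), with exact 95% binomial intervals. TEAD1 leads at 18.6% and 33.2%, and TEAD3 after thinning and CTGF in both have no positive cell.

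Counts within positive cells were mostly single tags. TEAD1 had 1 count in 132 of its 200 unthinned positive cells and at most 6, while NT5E reached 10 and CYR61 6. Of the 69 CYR61 counts, 5 lay in the deepest cell. After thinning, the variance over the mean of the 8 genes with a count lay between 0.943 (TEAD2) and 1.13 (CYR61 and TEAD4), beside medians between 0.982 and 1.08 for rows of like mean. The 8 genes then held between 9 (YAP1) and 118 (TEAD1) counts, and the 33 counts of TEAD2 lay in 33 cells. With so few tags, mostly single, the value is held near 1. It therefore cannot tell how much these genes vary between cells.

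Targets were seen at nearly the same share in cells with a factor as in cells without one. A factor had a count in 31.1% of thinned cells and a target in 18.6%, and 56.3% of cells had neither. A target was present in 33 of 174 cells with a factor, or 19.0% (13.4% to 25.6%), against 71 of 386 cells without one, or 18.4% (14.7% to 22.6%). Without thinning the same shares were 40.8% and 28.9%, and both TEAD1 and NT5E had a count in more of the deeper cells. A coactivator and a TEAD were seen together in 8 thinned cells (1.43%), and a coactivator, a TEAD and a target in 1. CYR61 had a count in 4 of 104 TEAD1 positive cells, or 3.85% (1.06% to 9.56%), against 17 of 456 TEAD1 negative cells, or 3.73% (2.19% to 5.90%). At this depth no gap between these shares was detectable.

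The pairing of CYR61 with NT5E went opposite ways with and without thinning. NT5E was absent from all 21 thinned CYR61 positive cells, which allows a share of up to 14.3%, against 58 of 539 CYR61 negative cells, or 10.8% (8.27% to 13.7%). Without thinning, NT5E had a count in 15 of 45 CYR61 positive cells, or 33.3%, against 20.8% of CYR61 negative cells, so the direction turned. AMOTL2 had a count in 3 of 21 CYR61 positive cells, or 14.3% (3.05% to 36.3%), against 26 of 539 CYR61 negative cells, or 4.82% (3.17% to 6.99%). Across the 560 thinned cells the Spearman rho of the 28 pairs of genes with a value ran between -0.07 (CYR61 with NT5E) and 0.10 (NT5E with YAP1), with a median of -0.02. These are values across cells of 1 pool, which share libraries and depth.

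To see what else went with TEAD1, the 104 thinned cells with a TEAD1 count were set against the 455 without, and their full counts were summed (the deepest cell left out). TEAD1 positive cells held 164 TEAD1 counts, against 121 unthinned ones still in TEAD1 negative cells, so the contrast is diluted, as it is for CYR61 (36 against 28) and NT5E (92 against 85). Median totals per cell were 2368 in TEAD1 positive cells and 2183 in TEAD1 negative cells. Of 2765 genes with at least 100 counts, none was higher in TEAD1 positive cells by a log2 ratio of 1 or more (0%), and 12 were lower (0.434%). With another random thinning 6 were higher. Ranked by the interval end nearer 0, PTX3, a secreted pattern recognition protein, came first. It was at 570.4 CPM in TEAD1 positive cells and 336 CPM in TEAD1 negative cells (log2 ratio 0.76, 0.49 to 1.03). PTX3 had a count in 41.3% of TEAD1 positive and 36.0% of TEAD1 negative cells, and its ratio was 0.23 with another thinning. MCM6, a helicase subunit of DNA replication, came next at 230.3 and 124 CPM (0.89, 0.45 to 1.32). PRC1, a spindle midzone protein, was at 209 CPM against 112 CPM (0.90), and HJURP, a centromere histone chaperone, at 223 CPM against 133 CPM (0.75). EIF2AK1, HUWE1, RBM25 and SAMM50 stood between 0.79 and 0.98. These are the extremes of all ratios, and their intervals do not allow for that choice. Under that other thinning, 2 of these 8 were named again.

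The genes named lower in TEAD1 positive cells were CHGA, a chromaffin granule protein (-1.67), TACO1 (-1.13), UBL7 (-1.06), MCL1, a survival factor (-1.05), and IGFBP2 (-0.91). CHGA came from few cells, with 66.7% of its TEAD1 positive counts in 1 cell, and with another thinning its ratio turned to 1.78. None of the 5 was named again under that thinning. The 5 genes of highest Spearman rho with TEAD1 were MCM6 (0.156), EIF2AK1 (0.154), CENPN (0.147), SVIP (0.141) and PVRL2 (0.129), beside a median of 0.0005 over the 2765 genes, and 0 of the 5 were named again with another thinning.

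Of the other factors and targets, TEAD2 stood higher in TEAD1 positive cells, at 92.1 CPM against 53.1 CPM in TEAD1 negative cells (log2 ratio 0.79, 0.07 to 1.48, with 0.77 and 0.83 in the 2 sets). That ratio was 0.26 with another thinning and 0.29 in thinned sums. CYR61 was at 56.7 CPM in TEAD1 positive cells and 41.1 CPM in TEAD1 negative cells (0.46, -0.45 to 1.31). NT5E was at 99.2 and 128 CPM (-0.36, -1.0 to 0.23) and AMOTL2 at 49.6 and 61.7 CPM (-0.31, -1.25 to 0.52). For these 3 targets the intervals include 0. AMOTL2 went opposite ways in the sets, at 0.54 in set 1 and -2.12 in set 2, and was at 0.41 in thinned sums.

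CYR61 positive cells numbered 21, against 538 CYR61 negative ones, with median totals of 2777 in positive and 2202 in negative cells. Of 2766 genes, 66 were higher in CYR61 positive cells by a log2 ratio of 1 or more (2.39%) and 247 were lower (8.93%). With 21 cells the counting intervals are wide. TGM2, a transglutaminase that cross-links matrix proteins, was at 820.1 CPM in CYR61 positive cells and 322 CPM in CYR61 negative cells (1.35, 0.89 to 1.77, with 1.64 in set 1 and 0.79 in set 2). SERPINB2, an inhibitor of plasminogen activators, was at 672 CPM against 273 CPM (1.30, 0.80 to 1.77, with 1.19 and 1.5 in the 2 sets). MSMO1, an enzyme of sterol synthesis, was higher by 1.60, MPRIP, a myosin phosphatase partner, by 1.44, and LOC100499466 by 1.96. Of the positive counts, 1 cell held 36.6% for SERPINB2, 35.7% for LOC100499466, 26.3% for MPRIP, 26.1% for MSMO1 and 24.0% for TGM2. In thinned sums LOC100499466 was at 0.87, while TGM2 was at 1.76, MSMO1 at 1.64, SERPINB2 at 1.37 and MPRIP at 1.28. PLAT, a plasminogen activator, was higher by 1.27, but 56.0% of its positive counts lay in 1 cell and it was at -0.47 in set 1. With another thinning, 6 of the 8 genes named higher and 3 of the 5 named lower were named again.

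BEX1 was lower in CYR61 positive cells, with 0 counts there against 211 in CYR61 negative cells (interval end at a log2 ratio of -1.32). DDC, an enzyme of catecholamine synthesis, had 2 counts against 290 (-2.67, -5.72 to -0.80). C12orf34 had 0 against 149 counts and FAM114A1 0 against 132. With another thinning C12orf34 was at -2.89 and FAM114A1 at -0.68. Of CYR61 negative cells, 21.7% had a count of BEX1, 18.6% of C12orf34 and 19.9% of FAM114A1. These genes are extremes of all ratios over 21 positive cells, and their intervals do not allow for that choice. CHGA had 0 against 170, but 83.9% of its counts lay in 10 cells and 5.58% of CYR61 negative cells had one, so its absence from 21 cells is no clear difference. For TEAD1, AMOTL2 and NT5E the intervals include 0 in this split. TEAD1 was at 246 CPM in CYR61 positive cells and 194 CPM in negative ones (0.34, -0.52 to 1.09). AMOTL2 was at 98.4 and 57.6 CPM (0.77, -0.72 to 1.96). NT5E was at 148 and 121 CPM (0.29, -0.87 to 1.2). Among the 5 genes of highest rho with CYR61 were NIT2 (0.173), RPN1 (0.170), PLEC (0.165) and TPMT (0.154), and 0 of the 5 were named again with another thinning.

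**Figure D3:**
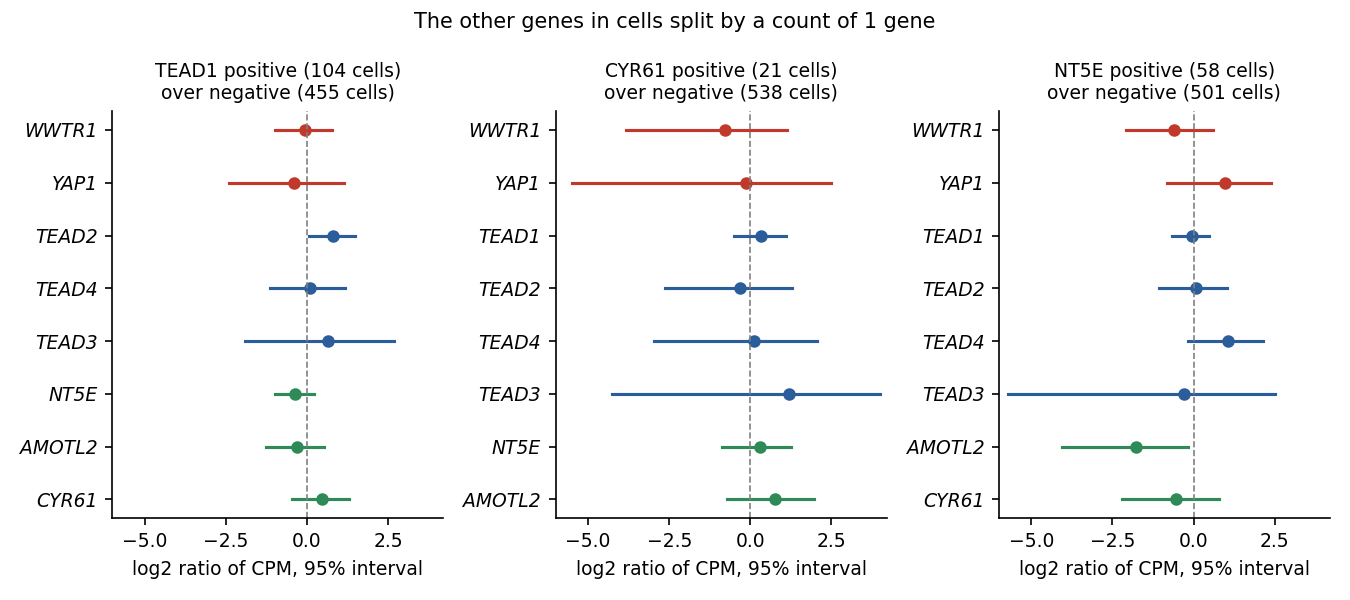
Log2 ratio of CPM with 95% counting intervals for the other genes in TEAD1, CYR61 and NT5E positive over negative cells, with coactivators in red, TEAD factors in blue and targets in green. Most intervals include 0, and TEAD2 in the TEAD1 panel (0.79) and AMOTL2 in the NT5E panel (-1.76) lie off it.

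A split by NT5E was added after its values were seen. Its 58 positive cells had a median total of 2246.5, against 2210.0 in the 501 NT5E negative cells. Of 2765 genes, 12 were higher by a log2 ratio of 1 or more (0.434%) and 81 were lower (2.93%). With another thinning these counts were 17 and 87, and over the settings at the same minimum of counts they ran between 4 and 80 and between 21 and 242. With that other thinning, 1 of the 8 genes named higher and 2 of the 5 named lower were named again. CD44, a hyaluronan receptor of mesenchymal cells, was at 436 CPM in NT5E positive cells and 214 CPM in negative ones (1.03, 0.63 to 1.41), and SCP2, a lipid transfer protein, was higher by 1.28. With another thinning CD44 was at 0.79 and SCP2 at 0.26. INS-IGF2, a readthrough locus that includes the growth factor gene IGF2, had 7 counts in NT5E positive cells against 1199 in NT5E negative cells (-4.39, -5.71 to -3.35), with -4.07 in set 1 and -4.98 in set 2. By cells it was seen in 10.3% of NT5E positive and 24.6% of NT5E negative cells, and 48.8% of its counts lay in 10 cells. Its tags may not be told apart from those of the overlapping genes. NPY, a sympathetic neuropeptide, had 1 count against 177 (-4.44, -9.75 to -1.94). It was seen in 1.72% of NT5E positive and 10.6% of NT5E negative cells, with 44.1% of its counts in 10 cells. CHGA had 1 against 169 (-4.37, -9.69 to -1.88), but by cells it was seen in 1.72% of NT5E positive and 5.79% of NT5E negative cells. None of these intervals allows for counts gathered in few cells. AMOTL2 had 3 counts against 83 (-1.76, -4.07 to -0.17), and its ratio was -0.39 when cells were split by unthinned counts. Read the other way, the 93 cells with an INS-IGF2 count after thinning held 6 full NT5E counts. The 466 cells without a thinned INS-IGF2 count held 171 (-2.50, -3.97 to -1.35). Before thinning 139 cells had an INS-IGF2 count, so some of the 466 held one. After thinning, NT5E had a count in 3.23% (0.67% to 9.14%) of the 93 cells and 11.8% (9.02% to 15.1%) of the 466. This is the same pairing in the same cells and adds no separate support.

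The rest of the pathway was read from lists of known genes, each set beside a median of 2.47 for log2(CPM + 1) over all protein-coding rows. Of those rows, 34.2% were at 0. The Hippo kinase core, which restrains YAP and TAZ, had a median of 4.26 with 0 of 17 members at 0. MAP4K4, an upstream kinase, led at 138 CPM and NF2, the scaffold merlin, stood at 63.7 CPM, while the kinases LATS1 and LATS2, which phosphorylate YAP, had 5 and 6 counts. Junction and polarity regulators had a median of 4.98, led by CSNK1D and CTNNA1 at 267 CPM each. The 14-3-3 proteins, which hold phosphorylated YAP in the cytoplasm, had a median of 6.24, with YWHAB at 374 CPM and SFN at 0. The list of TEAD partners (median 3.43) also holds genes known as partners of YAP and TAZ, WBP2 and TP73 among them. In it SMARCA4 and WBP2 stood at 224 and 153 CPM, and VGLL4, a TEAD repressor, had 15 counts. VGLL1, VGLL2, VGLL3, TP73 and RUNX3 were at 0.

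Other targets of YAP and TEAD were mostly detected. The 32 listed had a median of 4.53. Of these, 4 (FOXF2, TGFB2, EDN1 and AREG) were at 0, beside 34.2% of all protein-coding rows. BIRC5, a mitotic survival factor, stood at 432 CPM, AXL, a receptor kinase, at 406 CPM and CDC42EP3 at 201 CPM, each above the 4 targets described here, while ANKRD1 had 12 counts. Of the 6 CCN genes, CYR61 had 69 counts, NOV had 1 and CTGF, WISP1, WISP2 and WISP3 had 0. The AP-1 genes, whose products bind beside TEAD factors, had a median of 3.94, with FOSL1 at 233 CPM and FOSB at 0. Targets of SRF, the actin-sensing factor, had a median of 5.66.

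**Figure D4:**
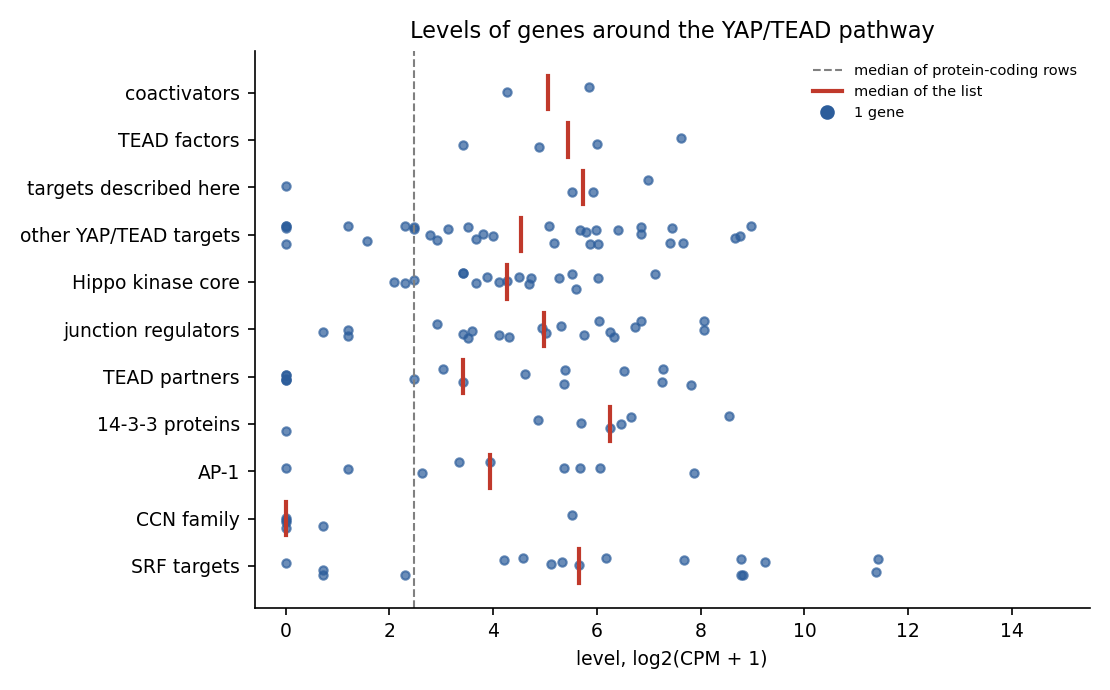
Level of each gene as log2(CPM + 1), 1 dot per gene, by list, with the list median (red line) and the median of protein-coding rows (dashed, 2.47). The coactivators, TEAD factors and 4 targets lie among the pathway lists, and 4 of the 6 CCN genes are at 0.

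The lists were then summed in the split cells, beside medians over all tested genes of -0.01 for TEAD1, -0.02 for CYR61 and -0.02 for NT5E. In TEAD1 positive cells the other YAP/TEAD targets stood at 2498 CPM against 2629 CPM in TEAD1 negative cells (-0.07, -0.19 to 0.04), and 4 of the 9 tested members had a ratio above 0. The G2/M genes, which act in mitosis, stood at 3401 CPM against 2861 CPM (0.25, 0.14 to 0.35, with 0.22 in set 1 and 0.29 in set 2), with 14 of 16 above 0, HJURP (0.75) and CDCA3 (0.66) among them. The G1/S genes, MCM6 among them, were at 0.05 (-0.07 to 0.16), with 6 of 13 above 0. The other MCM genes did not share the MCM6 ratio of 0.89. MCM2 was at -0.46, MCM3 at -0.29, MCM4 at -0.08, MCM5 at -0.39 and MCM7 at 0.02. SRF targets were at 0.18 but turned to -0.13 with another thinning.

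In CYR61 positive cells the other YAP/TEAD targets stood at 3412 CPM against 2568 CPM in CYR61 negative cells (0.41, 0.20 to 0.61), and 8 of the 9 tested had a ratio above 0, with CDC42EP3 at 0.83. The barcode sets differed, at 0.65 in set 1 and 0.08 in set 2, and the thinned counts gave 0.28 (-0.09 to 0.63). SRF targets, mostly actin, were at 0.49 (0.37 to 0.60), with 0.73 in set 1 and 0.08 in set 2, and TPM1 (0.83) and FLNA (0.76) led. One cell held 18.8% of those SRF counts, and the part of that cell in the result was not tested. Mesenchymal genes were at 0.07 (-0.04 to 0.19), but the members went opposite ways, with 5 of the 9 tested above 0. SPARC was at 0.70 (0.46 to 0.93) and COL1A1 at 0.85 (0.29 to 1.36). VIM, which held most of the list's counts, was at -0.33 (-0.51 to -0.16). In sets 1 and 2, SPARC was at 1.03 and 0.23, COL1A1 at 0.55 and 1.08, and VIM at -0.69 and -0.03. Adrenergic genes were at -0.25 (-0.52 to 0.01). Both list intervals include 0. G2/M genes were at 0.21, with 37.0% of their positive counts in 1 cell, and stood at 0.57 in set 1 and -0.29 in set 2.

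In NT5E positive cells the other YAP/TEAD targets stood at 3277 CPM against 2521 CPM in NT5E negative cells (0.38, 0.24 to 0.51), with 0.25 in set 1 and 0.53 in set 2. PTPN14, itself a YAP inhibitor, was at 0.95, CCDC80 at 0.90 and AXL at 0.37, while CCND1, a cell cycle gene, was at -1.04. PTPN14 was at 0.12 in set 1 and 1.77 in set 2, AXL at -0.10 and 0.85, CCDC80 at 0.54 and 1.23, and CCND1 at -0.91 and -1.19. Adrenergic genes were lower, at 1888 CPM against 2482 CPM (-0.39, -0.57 to -0.22), with GATA2 at -1.32, GATA3 at -0.92 and DDC at -3.14. Of the 9 tested, 2 were above 0, TBX2 at 0.47 and HAND2 at 0.14 (-0.33 to 0.58). The list interval does not allow for counts gathered in few cells. For DDC 36.2% of counts lay in 10 cells, and for CHGA, also in the list, 83.9%. Mesenchymal genes were at 0.21 (0.14 to 0.28), and at 0.08 (-0.04 to 0.20) in thinned counts.

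**Figure D5:**
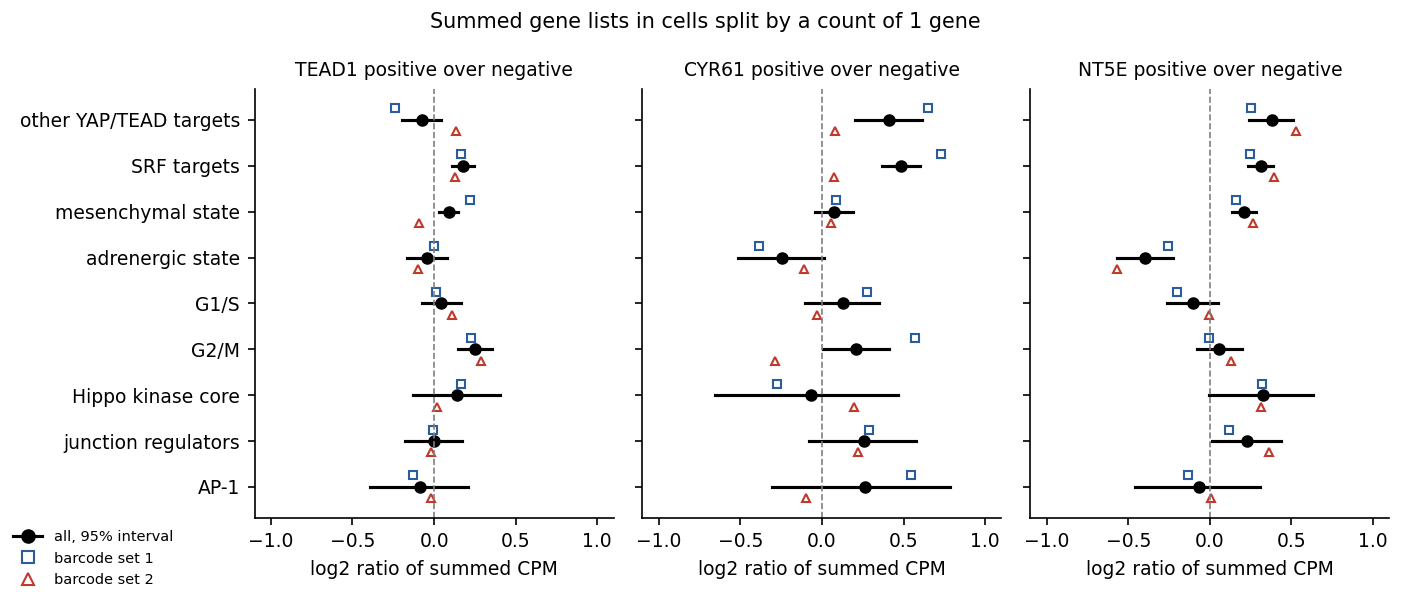
Log2 ratio of summed CPM of 9 gene lists in TEAD1, CYR61 and NT5E positive over negative cells, for all cells with 95% counting intervals (black), barcode set 1 (squares) and barcode set 2 (triangles). The other YAP/TEAD targets lie at -0.07, 0.41 and 0.38 in the 3 panels, and in the CYR61 panel the sets lie apart.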

How the data were processed

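The authors deposited a table of counts, whole numbers per gene and cell, not normalized. The submitters' processing notes name Bowtie2 2.1.0 and hg19. No source used here names the counting tool, the annotation or the cell filter, or says whether counts are molecules or reads. A row named unknown (2 counts, 0.00013% of all) was left out. Cells were thinned without replacement to 1100 counts (seed 1) for shares, rho and the choice of positive cells. Splits leave out the deepest cell, sum full counts, and give log2 ratios of CPM with exact conditional binomial intervals at 95%. Shares carry exact Clopper-Pearson intervals, and a count of 0 allows 3 counts. Genes with at least 100 counts entered a split, and a log2 ratio of 1 in size was counted. Named genes are the 10 members, the 8 highest and 5 lowest ratios ranked by the interval end nearer 0, the 5 highest rho, and the 4 highest members of each list with those at 0; other genes of a list were chosen after their values were seen. Some genes this rule picks are left unnamed and not reported here, though counts and list sums include them. Members and lists were chosen with earlier results of these data known. No doublet caller was run, since cells were sorted singly. The split and rho code was tested on simulated data. Python 3.11.15, NumPy 2.4.6, SciPy 1.17.1 and pandas 2.3.3 were used.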

Additional observations from a re-analysis of the deposited data

How the results depend on the processing

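Levels kept within counting error in 48 of 50 recomputations, and the log2 ratio of targets to factors lay between -0.85 and -0.63 in its 5. Shares moved with depth: TEAD1 23.0% of cells at 1500 counts and 33.2% unthinned, CYR61 7.46% unthinned, and, unthinned, CYR61 in 10.0% of TEAD1 positive cells and a target in 40.8% of cells with a factor. Counts of genes past a log2 ratio of 1 depended on the setting. In TEAD1 positive cells the count higher was 2 at 1500 counts, 6 with another thinning, 3 by unthinned counts, 28 with thinned sums, 1740 with no minimum, 30 with a minimum of 50, 12 in set 1 and 25 in set 2. The count lower was 1 by unthinned counts, 79 with thinned sums, 3331 with no minimum, 91 with a minimum of 50, 57 in set 1 and 85 in set 2. In CYR61 positive cells the count higher was 34 at 1500 counts, 14 by unthinned counts, 214 with thinned sums, 1767 with no minimum, 254 with a minimum of 50, 189 in set 1 and 159 in set 2. The count lower was 66 by unthinned counts, 523 with thinned sums, 6407 with no minimum, 715 with a minimum of 50, 464 in set 1 and 498 in set 2.

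Where the interval over all cells lay off 0, 10 of 288 recomputed gene ratios and 8 of 77 list ratios changed sign. Where it included 0, 38 of 176 gene ratios and 28 of 112 list ratios did. For TEAD1, CHGA turned to 1.28 at 1500 counts, 1.78 with another thinning and 0.96 by unthinned counts, IGFBP2 to 0.24 and PVRL2 to -0.52 with another thinning, PVRL2 to -0.040 by unthinned counts, SRF targets to -0.13 with another thinning and mesenchymal genes to -0.090 in set 2. For CYR61, PLAT turned to -0.060 with another thinning and -0.47 in set 1, and G2/M genes to -0.27 at 1500 counts, -0.26 with another thinning, -0.057 by unthinned counts, -0.12 with thinned sums and -0.29 in set 2. For NT5E, CCL2 turned to -0.66 at 1500 counts and -0.11 in set 2, and junction regulators to -0.10 at 1500 counts. The rho of RPN1 with CYR61 turned to -0.037 at 1500 counts, and that of SDC4 with NT5E to -0.0027 with another thinning. The cause was not tested. No paired analysis was possible because the columns of cells carry no sample.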
